A study of Homo sapiens with 4 samples.

Results

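The PYHIN cluster on chromosome 1 holds the genes MNDA, PYHIN1, IFI16 and AIM2, and its H3K4me3 is described here in the luminal breast cancer cell line HCC1428. Its members were all merged peaks whose annotated gene was 1 of these 4, at any distance from the start site, which gave 16 of 110018 peaks. The genes were chosen with earlier values of the same C48 against DMSO contrast known, so every fold change of a member below, and every count of members past the threshold of the fit over all peaks, is a description that supports nothing about the members, and no p-value is given for them. Cells were treated with 2.5 µM C48, an inhibitor of the KDM5 histone demethylases, or with DMSO, the vehicle, and were collected on day 5. CUT&Tag, in which an antibody brings the transposase Tn5 to a histone mark so that the DNA beside it is cut and sequenced, was run on 2 libraries per group. The labels call these biological replicates without naming the cultures behind them, so any p-value covers only the spread between these libraries, which may be technical. Every value comes from 1 cell line and 1 dose.

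H3K4me3 marks the start sites of active genes, and KDM5 enzymes remove it. PYHIN proteins pair a pyrin domain, which binds other pyrin domains, with a HIN domain that binds DNA. AIM2 senses DNA in the cytosol and assembles an inflammasome with the adaptor ASC and caspase-1, IFI16 senses DNA in the nucleus and cytosol and signals through STING, and PYHIN1 and MNDA are nuclear proteins, MNDA being known from myeloid cells. The genes are known as interferon inducible and are best studied in blood and immune cells.

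The 4 genes differed first in where the peaks lay. Of the 16 peaks, 6 were assigned to IFI16, 4 to AIM2, 3 to PYHIN1 and 3 to MNDA, over 243 kb, and no merged peak of another gene lay between the first and the last. The annotation placed 4 of them at a promoter, 3 at IFI16 and 1 at AIM2, with 6 in introns and 6 between genes. No merged peak lay within 1 kb of the RefSeq start site to which the annotation assigned the MNDA or the PYHIN1 peaks, and neither gene has a promoter peak in that annotation. By the RepeatMasker entry in the annotation, 9 of the 16 lay in a repeat, which was a SINE for 3, a LINE for 3 and an LTR element for 3. The nearest merged peak outside lay 131 kb before the MNDA side, at OR6K2, and 55.0 kb beyond the AIM2 promoter, at CADM3. That CADM3 peak is outside by the annotated gene only, since AIM2 in GENCODE v44 runs from 159061599 to 159187843 and holds it.

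The promoter sequences are shown because the 2 genes with a peak at the start site and the 2 without one can be compared on them. Each runs from 250 bases before to 50 bases after a start site, 5′ to 3′ on the gene's own strand, with matches to any of 4 motifs on either strand in capitals. The motifs were the ISRE core, the element bound by interferon regulatory factors (GAAANNGAAA), GAS, the STAT element (TTCNNNGAA), AP-1 (TGANTCA) and the TATA box (TATAAA), and a match may overlap another. All but the upstream IFI16 sequence come from RefSeq on GRCh38.p14, and that one was read from hg38 at the start of the transcript NM_001364867.
AIM2 promoter, chr1:159076717-159077016, minus strand: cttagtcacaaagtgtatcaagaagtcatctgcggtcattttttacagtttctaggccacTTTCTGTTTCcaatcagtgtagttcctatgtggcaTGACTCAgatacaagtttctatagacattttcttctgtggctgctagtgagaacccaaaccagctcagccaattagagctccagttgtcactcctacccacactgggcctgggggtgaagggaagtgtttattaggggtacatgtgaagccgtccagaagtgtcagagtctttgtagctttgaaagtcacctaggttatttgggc
IFI16 promoter, chr1:159009657-159009956, plus strand: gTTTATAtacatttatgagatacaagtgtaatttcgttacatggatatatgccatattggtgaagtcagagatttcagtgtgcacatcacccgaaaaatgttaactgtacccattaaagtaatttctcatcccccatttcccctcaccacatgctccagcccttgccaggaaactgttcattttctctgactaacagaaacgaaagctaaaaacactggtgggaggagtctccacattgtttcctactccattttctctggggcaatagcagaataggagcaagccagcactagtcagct
IFI16 upstream promoter, chr1:158999726-159000025, plus strand: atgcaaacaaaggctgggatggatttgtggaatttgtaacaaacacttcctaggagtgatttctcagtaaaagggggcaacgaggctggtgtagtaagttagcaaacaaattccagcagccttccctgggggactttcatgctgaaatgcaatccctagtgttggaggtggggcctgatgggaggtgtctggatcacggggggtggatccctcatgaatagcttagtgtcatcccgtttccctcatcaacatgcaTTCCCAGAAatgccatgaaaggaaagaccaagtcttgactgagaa
PYHIN1 promoter, chr1:158931302-158931601, plus strand: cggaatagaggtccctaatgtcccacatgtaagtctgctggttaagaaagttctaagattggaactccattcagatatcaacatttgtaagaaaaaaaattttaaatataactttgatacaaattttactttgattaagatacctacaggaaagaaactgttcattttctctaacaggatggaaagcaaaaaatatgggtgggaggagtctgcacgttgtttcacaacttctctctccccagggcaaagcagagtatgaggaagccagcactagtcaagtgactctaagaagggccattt

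All 300 bases of the AIM2 window and of both IFI16 windows lay under a merged peak, and none of the PYHIN1 or MNDA window did. A further RefSeq start of IFI16 (chr1:159008741-159009040) lay under no merged peak either. The AIM2 window held 1 match to the ISRE core, which 3.57% of 35116 RefSeq promoters of this length held, and 1 to AP-1, which 7.71% held. The IFI16 window held 1 match to the TATA box, present in 11.5% of promoters and here near its 5′ end, and the upstream IFI16 window held 1 to GAS, present in 7.66%. The PYHIN1 window held none of the 4, and the MNDA window, not printed, held 1 ISRE core and 1 TATA box. A match is only these letters in this window.

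The cluster's promoters were poor in CG. The windows held 2 CG dinucleotides in AIM2, 3 in each of the IFI16 windows, 2 in PYHIN1 and 2 in MNDA, against a median of 14 over all promoters. Their GC content was 45.0%, 41.7%, 48%, 38.0% and 37.0% in the same order, against a median of 58.7%. The IFI16 and PYHIN1 windows were alike over 129 aligned columns, of which 103 (79.8%) were identical, and this stretch covered the start site of both genes. A merged peak lay over this stretch at IFI16 and none at PYHIN1, where the nearest merged peak centre was 6.52 kb downstream. The MNDA window shared shorter stretches with both, 77 columns with 56 identical (72.7%) with IFI16 and 74 columns with 57 identical (77.0%) with PYHIN1, and no alignment of the AIM2 window with another was longer than 20 columns.

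AIM2, the inflammasome sensor, had 1 peak at its start site, and it was higher in C48 cells. This peak (hg38 chr1:159076442-159077534, 1093 bases, centred 87 bases upstream of NM_001348247) had 28.95 and 30.55 tags per 10 M in C48 libraries and 8.94 and 10.99 in DMSO libraries. The unit is the number of sequenced tags in the peak per 10 M aligned tags. The peak centre lay 222 bases upstream of the start used for the printed window. The peak was the widest of the cluster, was called in all 4 libraries, and its groups were far apart compared with the gap between replicates. The means were 29.8 ± 1.13 tags per 10 M in C48 cells and 9.97 ± 1.45 in DMSO cells (SD, n = 2 each). The log2 fold change was 1.18 (SE 0.21), computed on log2 of the TMM-scaled value plus 1, where TMM sets the bulk of well-covered peaks to no change between libraries. Beyond the ISRE core and AP-1 matches above, the whole peak held a further AP-1 match, 2 GAS matches and 1 TATA box, and of the merged peaks on chromosome 1 of like width (n = 302, within 10%) 8.61% held an ISRE core, 21.2% AP-1, 22.5% GAS and 20.5% a TATA box.

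The other 3 AIM2 peaks lay 17.8 to 20.4 kb downstream of the start, between the 3′ ends of AIM2 and IFI16 in GENCODE v44, and all were weak and in the endogenous retroviral element MER61. At 17.8 kb, in MER61A, C48 libraries had 9.25 and 4.95 tags per 10 M, against 1.92 and 2.79 in DMSO libraries. At 20.4 kb, in the internal part MER61-int, the values were 3.43 and 4.54 in C48 libraries, against 1.24 and 2.63 in DMSO libraries. The third, at 18.2 kb, had 1.20 and 2.20 in C48 libraries and 0.34 and 0.77 in DMSO libraries, and was called as a peak in none. The first of these was called in both C48 libraries and in no DMSO library, as was the second. All 3 had higher values in both C48 libraries, on 3 to 54 tags per library, and all were below the level at which peaks were fitted, a mean scaled value of 5 over the 4 libraries.

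IFI16, the nuclear DNA sensor, had a peak at each of 2 start sites, and both were higher in C48 cells. At the upstream start (chr1:158999605-159000166, centred 91 bases upstream of NM_001364867) there were 20.56 and 22.84 tags per 10 M in C48 libraries, against 4.98 and 6.19 in DMSO libraries. The log2 fold change was 1.49 (SE 0.25), the largest of the 7 peaks that were fitted. This peak also overlapped an exon of PYDC5, a gene of a pyrin-only protein in GENCODE v44. Of the 2 genes, only IFI16 had a start site inside the peak, and whether any of the signal belongs to PYDC5 was not tested.

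At the start of NM_005531 (chr1:159009606-159010202, centred 3 bases upstream) there were 19.87 and 18.44 tags per 10 M in C48 libraries and 5.54 and 6.04 in DMSO libraries. The log2 fold change was 1.27 (SE 0.25). The 2 start sites were thus of about the same height in each group and 9.93 kb apart. The peak at NM_005531 reached past the printed window and held there an AP-1 match (taactaagTGACTCAaccaaggc, chr1:159009956-159009978) and a GAS match (ggttccgtTTCTGGGAActttactg, chr1:159010046-159010070, both plus strand, match in capitals). Of the merged peaks on chromosome 1 of like width (n = 1093), 13.3% held AP-1 and 12.8% GAS.

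The other 4 IFI16 peaks were weak, and each was higher in both C48 libraries. In intron 5, 12.4 kb downstream of the NM_005531 start, C48 libraries had 9.94 and 5.78 tags per 10 M, against 1.13 and 2.17 in DMSO libraries. At 3.44 kb upstream of the upstream start the values were 4.63 and 7.16 in C48 libraries, against 2.38 and 1.08 in DMSO libraries. These 2 peaks were called in both C48 libraries and in no DMSO library. The second held an ISRE core match (aaccacacTTTCAATTTCcccagcct, chr1:158996452-158996477, plus strand, match in capitals), found in 4.16% of merged peaks of like width on chromosome 1 (n = 2599). The peak 0.937 kb upstream, annotated to the promoter, had 4.11 and 3.72 in C48 libraries and 1.92 and 0.31 in DMSO libraries. The last, in an AluSc8 copy 3.34 kb downstream of the NM_005531 start, had 4.80 and 3.85 in C48 libraries and 1.02 and 0.31 in DMSO libraries. These last 2 were called in no library and rested on as few as 2 tags in 1 DMSO library, so their ratios carry a wide counting error.

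PYHIN1, whose protein is also known as IFIX, had the strongest peaks of the cluster, and 2 of its 3 peaks lay in copies of L1PA2, a young LINE-1 subfamily. The peak in intron 7, 21.3 kb downstream of the start (chr1:158952623-158953142), had 94.73 and 87.38 tags per 10 M in C48 libraries and 45.83 and 50.14 in DMSO libraries. The peak 45.4 kb upstream, between genes (chr1:158885809-158886554), had 79.14 and 75.69 in C48 libraries and 45.60 and 43.18 in DMSO libraries. The groups were apart at both, with ratios of the deposited means of 1.90 and 1.74. These ratios were smaller than at the IFI16 start sites (3.89 and 3.31) and the AIM2 promoter (2.99), although the gap in tags was larger. The log2 fold changes were 0.58 (SE 0.11) and 0.46 (SE 0.12), the 2 smallest of the fitted peaks. The 2 sequences were 91.3% identical over 401 aligned columns on the same strand (366 identical), and reads from near-identical L1PA2 copies elsewhere may be assigned to either, so both values are uncertain. Over all 568 fitted peaks in L1PA2 copies the median log2 fold change was −0.01, with the middle 50% between −0.29 and 0.27, and both PYHIN1 copies were above it.

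The third PYHIN1 peak lay in intron 2 outside any repeat (chr1:158937642-158938507, 6.52 kb downstream) and overlapped an exon of a PYHIN1 transcript in GENCODE v44. It had 24.84 and 22.98 tags per 10 M in C48 libraries, against 9.73 and 6.65 in DMSO libraries, and a log2 fold change of 1.15 (SE 0.23). In level and in fold change it was closer to the AIM2 promoter than to the L1PA2 peaks beside it. It was called in both C48 libraries and in 1 DMSO library. It held an ISRE core match (aaaaagacGAAACAGAAAgaagtgta, chr1:158938444-158938469, plus strand, match in capitals), with the same 10 bases as the AIM2 promoter match read on the opposite strand. An ISRE core was in 11.1% of merged peaks of like width on chromosome 1 (n = 583).

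MNDA, the myeloid member, had the weakest set, with 2 of its 3 peaks in Alu copies. The peak in intron 4, in an AluY copy 13.95 kb downstream of the start (chr1:158845144-158845467), had 12.16 and 12.52 tags per 10 M in C48 libraries, against 5.77 and 4.64 in DMSO libraries. Its log2 fold change was 0.82 (SE 0.28), and over all 717 fitted peaks in AluY copies the median was 0.50. Its limma call as higher was lost when either C48 library was left out (log2 fold change 0.84 without C48 replicate 1 and 0.79 without C48 replicate 2). HOMER called it in all 4 libraries, and its centre lay 0.596 kb upstream of the start of another MNDA transcript in GENCODE v44. The peak 44.7 kb downstream, in an L1P4a copy near the pseudogene PYHIN5P, had 6.34 and 4.95 in C48 libraries and 2.49 and 1.39 in DMSO libraries. The peak in an AluYg6 copy 2.99 kb downstream had 4.11 and 1.38 in C48 libraries and 0.23 and 1.24 in DMSO libraries. This was the only member whose groups overlapped after TMM scaling, and it rested on 2 to 24 tags per library.

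**Figure D1:**
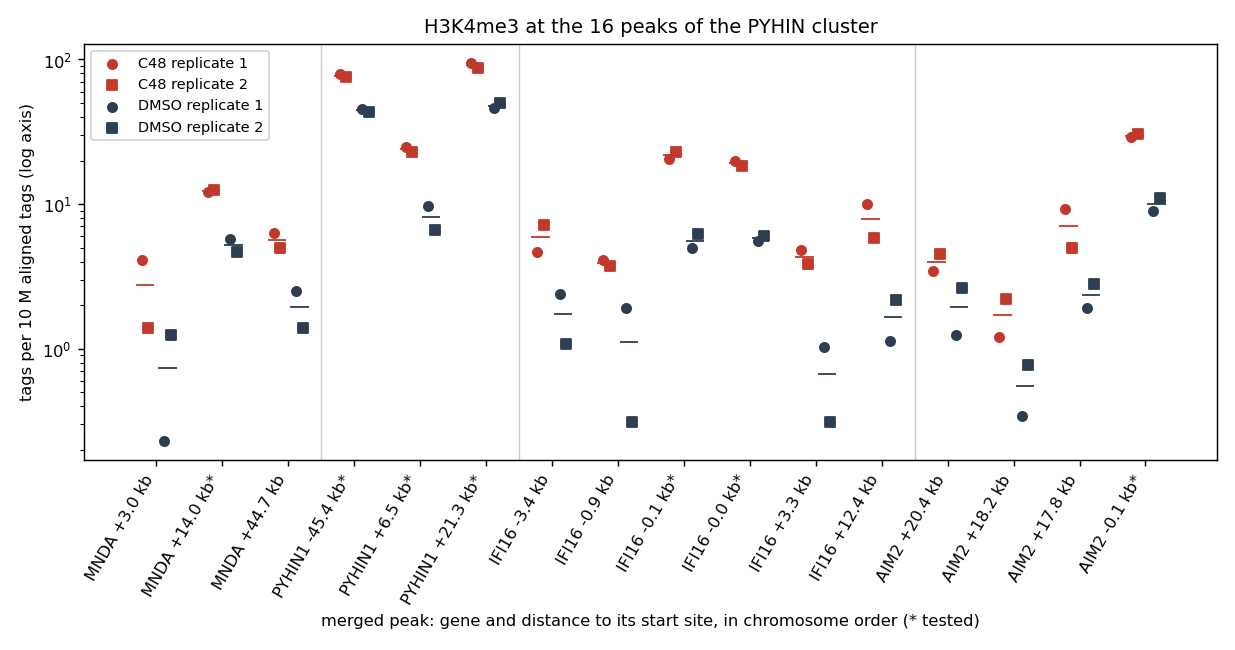
Each point is 1 library's H3K4me3 signal (tags per 10 M aligned tags, log axis) at 1 of the 16 merged peaks, named by gene and distance to the start site on the horizontal axis, with C48 libraries to the left of DMSO libraries and a short line at each group mean. Both C48 points lie above both DMSO points at each of the 16 peaks, and the 2 L1PA2 peaks of PYHIN1 are the highest, at 75.7 to 94.7 in C48 libraries.

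Over the 16 peaks together, both C48 libraries were above both DMSO libraries at 16 on the values as deposited, a pattern that 40.9% of all merged peaks showed, and at 15 after TMM scaling, where 31.2% of all merged peaks showed it. HOMER, which called the peaks in each library, called 5 members in all 4 libraries, 5 in both C48 libraries and no DMSO library, 2 in both C48 libraries and 1 DMSO library, 1 in a single C48 library and 3 in none. Of all merged peaks, 22.2% were called in all 4 libraries, 5.03% in both C48 libraries and no DMSO library, 2.74% in both C48 libraries and 1 DMSO library, 6.41% in a single C48 library only and 58.5% in none, the merged set having been built over other cell lines too. Only 7 members entered the fit across peaks, since the other 9 had scaled means of 1.07 to 4.48. All 7 were called higher in C48 cells by limma with Benjamini-Hochberg adjustment, where 36.0% of the 33819 peaks tested were called higher and 36.9% lower. Among peaks of the same annotation class with a mean level within 1.5 times of the member's, 46.6% to 56.1% were called higher. Because the members were chosen on this contrast, nothing is read from these counts. The median log2 fold change of the 16 was 1.04, with a range of 0.46 to 1.51, 9 of the 16 being below the level at which peaks were fitted. Over all peaks the median was 0.04 for the 33819 tested, 0.25 for the 45692 called in at least 1 library with no filter on low values, and 0 for all 110018 merged peaks with no filter.

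The cluster's signal was summed over the same 16 regions in every library, although 5 of these were called in C48 libraries alone in both replicates and so favour C48 in the sum. The 16 peaks summed to 328 and 309 tags per 10 M in C48 libraries and 139 and 141 in DMSO libraries. The 2 L1PA2 peaks made up 53.0% and 52.8% of this in C48 libraries, against 65.7% and 66.4% in DMSO libraries. The 6 IFI16 peaks summed to 63.9 and 61.8 tags per 10 M in C48 libraries, against 16.97 and 16.10 in DMSO libraries. Members in a repeat had a median log2 fold change of 0.82 (n = 9) and those outside had 1.18 (n = 7), with ranges that overlapped, 0.46 to 1.51 and 1.11 to 1.49. The 1 added before the log makes fold changes of weak peaks smaller. As plain ratios of the deposited group means, the medians were 2.91 in a repeat and 3.41 outside. The ranges were 1.74 to 6.50 and 2.92 to 4.76.

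**Figure D2:**
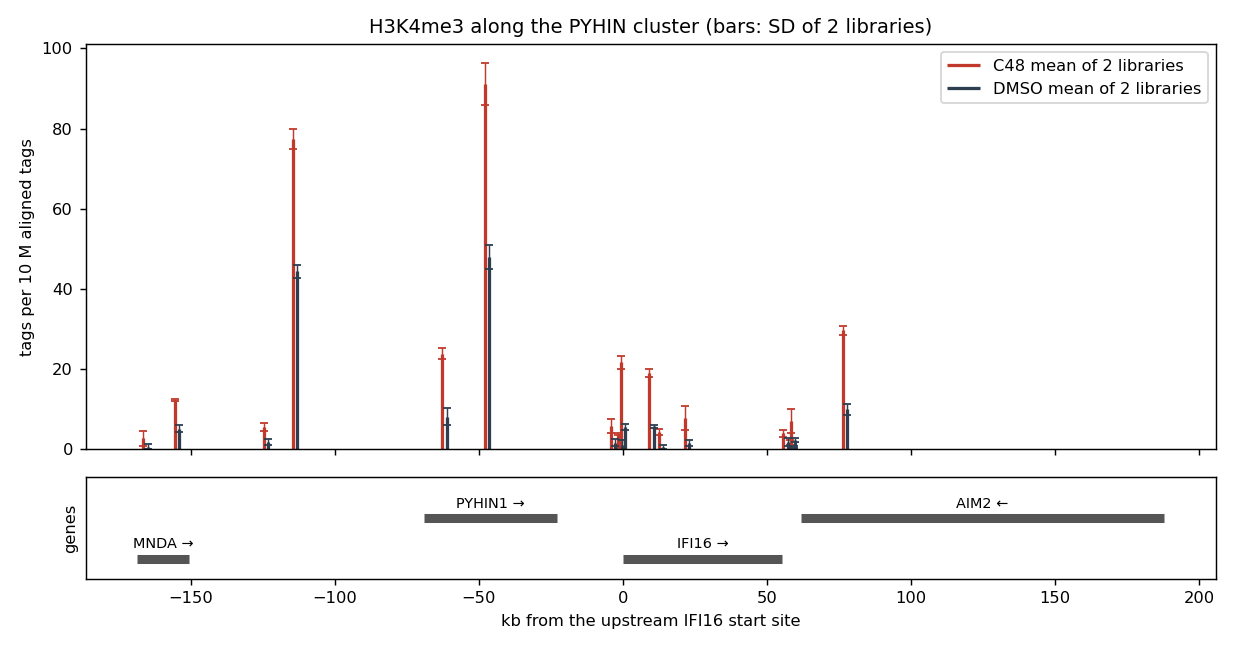
H3K4me3 (mean tags per 10 M aligned tags, bars SD of 2 libraries) at each merged peak against its distance in kb from the upstream IFI16 start site, with C48 drawn just left of DMSO, and below it the extent and direction of the 4 genes in GENCODE v44. The 2 tall pairs on the left are the L1PA2 copies of PYHIN1, and the next tallest C48 value is the AIM2 promoter, at 29.8.

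Peaks of the same kind and strength give a measure of how far each member stood out, as a description. Among promoter peaks with a mean level within 1.5 times of its own, the upstream IFI16 peak had a fold change above 92.0% (n = 389), the NM_005531 peak above 85.3% (n = 374) and the AIM2 promoter peak above 85.3% (n = 456). The medians of these like peaks were 0.52, 0.49 and 0.51, so the typical promoter peak of this strength also had a positive fold change. Outside promoters the members stood closer to the middle. The MNDA AluY peak was above 63.2% of like intron peaks (n = 2402), and the L1PA2 peak in PYHIN1 intron 7 was above 63.7% (n = 1203). The intergenic L1PA2 peak was above 64.5% of like intergenic peaks (n = 1284) and the intron 2 peak of PYHIN1 above 75.9% of like intron peaks (n = 1756).

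The values above depend on how libraries are scaled, since the deposited columns carry no spike-in scaling and the fly spike-in counts are not analysed here. In the paper, C48 samples held fewer fly reads than DMSO samples, which it relates to a global rise in H3K4me3. It states that C48 peaks are counted too low when the spike-in is left out. A call as lower with TMM is relative to the bulk of well-covered peaks and need not be an absolute loss. All 7 fitted members had a positive log2 fold change under each of 5 scalings, from 0.40 for the intergenic L1PA2 peak with DESeq2 size factors to 2.15 for the upstream IFI16 peak when ribosomal protein promoters were set to no change. The background moved with the scaling too, the median of all peaks being 0.04 with TMM, 0.38 on the values as deposited and 0.79 with ribosomal protein promoters. Peaks called higher were 53.3% of those tested on the values as deposited, 55.8% when scaled to the column total, 32.5% with DESeq2 size factors and 77.4% with ribosomal protein promoters. A change of scaling shifts all peaks and their median by nearly the same amount. Distances from the median therefore hold nearly still by construction and say nothing about the members. The AIM2 promoter stood 1.14 above the median with TMM and 1.09 with ribosomal protein promoters, and the intergenic L1PA2 peak 0.42 and 0.40.

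**Figure D3:**
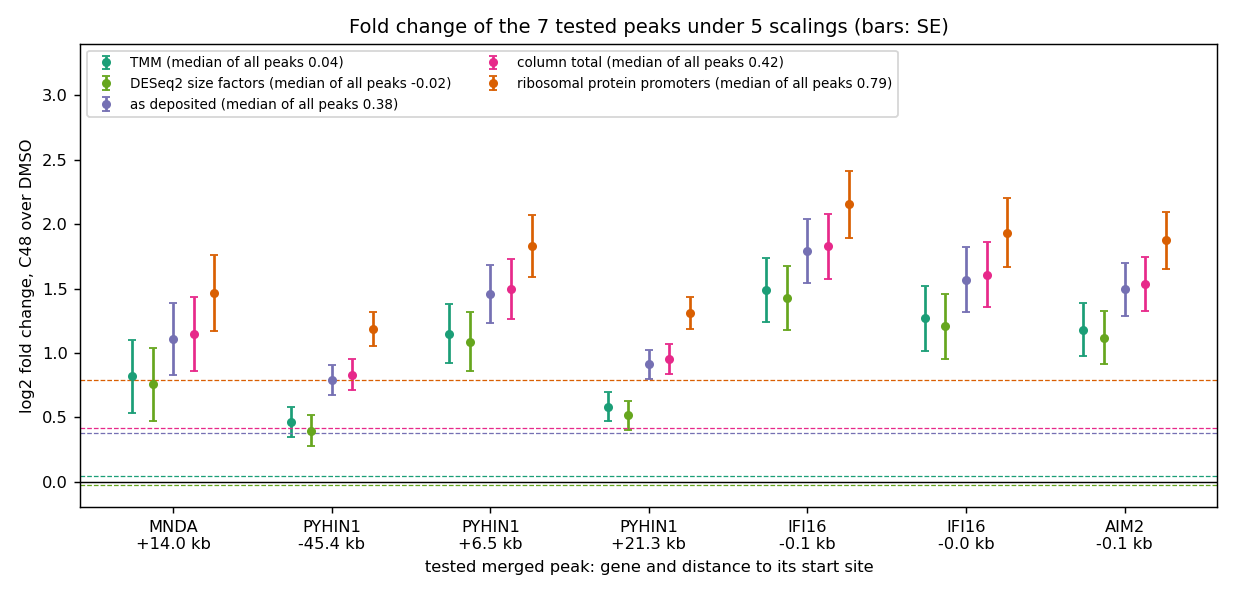
Log2 fold change, C48 over DMSO (bars SE), of the 7 fitted peaks of the cluster under 5 scalings of the libraries, with the median of all peaks tested as a dashed line in the colour of each scaling. Every point lies above 0 and above the median of its own scaling, which shifts with the points by construction. The intergenic L1PA2 peak of PYHIN1 lies nearest to that median.

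Summed over all peaks that the annotation placed at a gene's promoter, IFI16 had 44.54 and 45.00 tags per 10 M in C48 libraries and 12.44 and 12.54 in DMSO libraries. This sum holds both start sites and the weak peak upstream of them. Its log2 fold change was 1.45 (SE 0.16), and that of AIM2, whose sum is its 1 promoter peak, was 1.18 (SE 0.19). Of 10009 promoters tested, 18.9% were called higher and 58.3% lower, with a median log2 fold change of −0.34. That split followed the scaling, with 35.5% higher and 38.4% lower on the values as deposited (median −0.01) and 67.6% higher and 10.2% lower with ribosomal protein promoters (median 0.40). Among promoters within 1.5 times of its level, IFI16 was above 97.3% (n = 1077, median 0.17) and AIM2 above 91.3% (n = 923, median 0.26). Both promoters remained weak in either group. By TMM-scaled level, IFI16 was above 20.3% of promoters in C48 cells and 8.74% in DMSO cells, and AIM2 above 13.8% in C48 cells and 6.73% in DMSO cells.

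The promoters nearest to IFI16 over the 4 libraries, by Euclidean distance of log2 of the scaled value plus 1, were those of GRIA4, a glutamate receptor subunit (0.23), ZEB2, a zinc finger repressor (0.26), and ZSWIM3 (0.31), among 10008 promoters. GRIA4 had 43.68 and 41.55 tags per 10 M in C48 libraries, against 13.91 and 11.45 in DMSO libraries. Those nearest to AIM2 were CELF3, an RNA-binding protein (0.14), LINC02130 (0.14) and ADGRE4P (0.21), with CELF3 at 28.78 and 30.83 in C48 libraries and 8.60 and 12.07 in DMSO libraries. With 4 libraries in 2 groups, the distance reflects little beyond the level in each group.

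**Figure D4:**
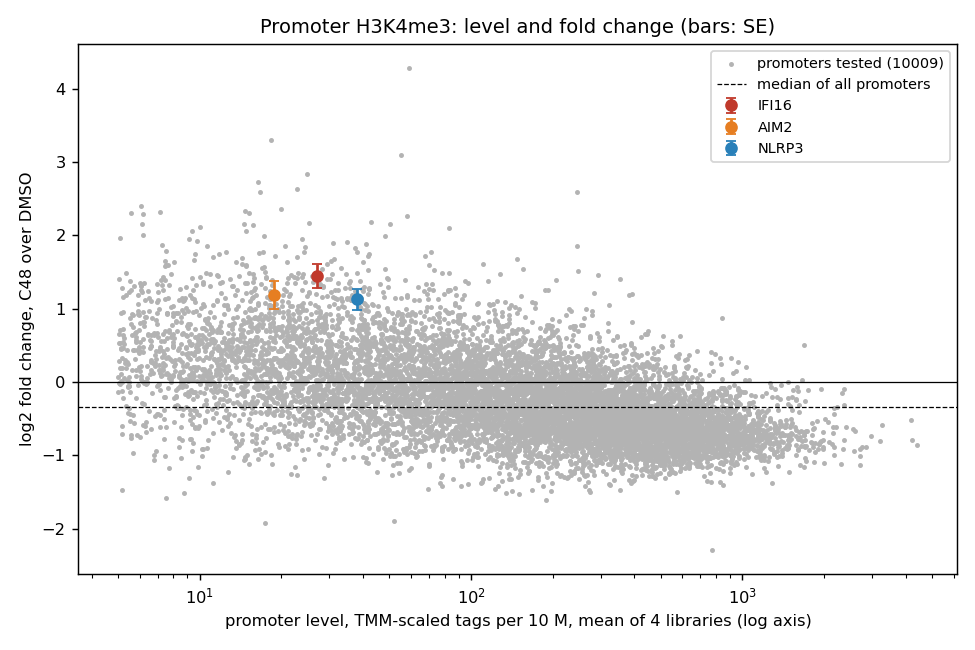
Each grey point is 1 of 10009 promoters, with its mean TMM-scaled level (tags per 10 M, log axis) on the horizontal axis and its log2 fold change, C48 over DMSO, on the vertical axis; coloured points with SE bars are IFI16, AIM2 and NLRP3. The 3 lie among weak promoters, at 1.45, 1.18 and 1.13, above the dashed median of −0.34.

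Of the inflammasome genes listed, few had a promoter sum that could be fitted, and of those fitted 3 belong to or bind the NLRP3 inflammasome rather than that of AIM2. In a list of 28 (sensors, the adaptor, caspases, gasdermins and interleukins), 22 had a peak in the table and 4 a fitted promoter sum, of which 1 was called higher and 3 lower. This list and those that follow were fixed with earlier results of these data known. Called genes were named by smallest p, so their values are a description. NLRP3, the sensor of another inflammasome, had 57.04 and 60.41 tags per 10 M in C48 libraries and 19.24 and 22.59 in DMSO libraries, a log2 fold change of 1.13 (SE 0.14). NEK7, the kinase that NLRP3 binds, was lower, with 380 and 369 in C48 libraries against 672 and 676 in DMSO libraries (log2 fold change −1.18, SE 0.05). TXNIP, a thioredoxin inhibitor that binds NLRP3, had 246 and 272 in C48 libraries and 253 and 250 in DMSO libraries, and GSDME, a pore-forming gasdermin, 287 and 284 in C48 libraries and 282 and 236 in DMSO libraries. Those 2 were called lower with TMM (−0.29 and −0.19), but the calls were lost on the values as deposited, where 1 of the 4 was higher and 1 lower. With all peaks within 1 kb of a start site summed in place of those annotated to the promoter, 10 of the list were fitted, of which 5 were called higher and 4 lower (median 0.11), beside 18.8% higher and 64.3% lower over all 14649 genes fitted that way.

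In a list of DNA sensing and repair genes linked to IFI16, most fitted promoters were called lower with TMM, a direction that followed the scaling. Fitted were TBK1, IRF3, NFKB1 and RELA of the signalling route, and beside it XRCC5, XRCC6, PRKDC, MRE11, BRCA1, DDX41 and TREX1. Of 20 genes listed, 19 were in the table and 11 were fitted, of which 0 were called higher, 10 lower and 1, TREX1, not called, with a median log2 fold change of −0.40 beside −0.34 over all promoters. On the values as deposited 1 was higher and 5 lower, and with ribosomal protein promoters 8 were higher and 0 lower, beside the shares of all promoters given above. With all peaks within 1 kb of a start site, 15 were fitted, of which 3 were called higher and 10 lower (median −0.33). TBK1, the kinase downstream of STING, had 1233 and 1134 tags per 10 M in C48 libraries, against 1421 and 1472 in DMSO libraries (−0.62, SE 0.04). NFKB1 and RELA, subunits of NF-κB, had log2 fold changes of −0.74 and −0.52 (SE 0.05 each). CGAS and STING1 had no fitted promoter sum.

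The neighbourhood was sparse. Of 30 genes listed around the cluster, 22 were in the table and 3 had a fitted promoter sum. DUSP23, a phosphatase, had 294 and 280 tags per 10 M in C48 libraries, against 428 and 430 in DMSO libraries (log2 fold change −0.91, SE 0.05). TAGLN2, an actin-binding protein, was called lower with TMM (−0.14, SE 0.04) although its deposited values were 1096 and 1094 in C48 libraries and 950 and 971 in DMSO libraries, and KIRREL1 was not called. On the values as deposited, 2 of the 3 were higher and 1 lower. Within 100 kb of the members the only other peaks were 3 assigned to CADM3, a cell adhesion gene, and all lie within the extent of AIM2 in GENCODE v44. The 1 fitted CADM3 peak, 527 bases downstream of the CADM3 start, had 29.46 and 26.97 tags per 10 M in C48 libraries and 17.31 and 15.48 in DMSO libraries (log2 fold change 0.43, SE 0.19).

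Depth was not given but worked out from the size of 1 tag in the deposited values, taking these as scaled to 10 M. It came to 58.4 and 72.7 M aligned tags in C48 libraries and 88.4 and 64.6 M in DMSO libraries. On the same scaling, 64.0 to 66.3% of tags lay in merged peaks. Luminal markers carried signal within 1 kb of their start sites for 11 of 12 genes, and GATA3 had no peak assigned there. Their sums were 5456 and 5615 tags per 10 M in C48 libraries and 6762 and 6690 in DMSO libraries. The genes did not move together. On the values as deposited, ELF3, SPDEF and TFF1 were higher in C48 libraries, and CDH1, EPCAM, ESR1, FOXA1, KRT8, KRT18, KRT19 and XBP1 lower. Of the blood and immune markers 14 of 16 were in the table, and 5 of these had a peak within 1 kb of the start, with sums of 638 and 650 in C48 libraries and 389 and 373 in DMSO libraries, most of it at CORO1A. CD14 was among them, with 50.19 and 46.51 in C48 libraries and 17.54 and 15.78 in DMSO libraries, while the defining markers CD3D, CD3E, CD2, MS4A1, LYZ, SPI1, ITGAM and HLA-DRA had none in any library. The part of these markers in the results was not tested.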

How the data were processed

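H3K4me3 CUT&Tag was measured in 4 HCC1428 libraries, 2 per treatment, grouped by sample title. Reads were aligned to hg38 with Bowtie2 2.3.4.1 per the submitters' processing notes. The authors called peaks per library with HOMER (version not given in the sources used here), merged them over libraries that include other cell lines, and deposited a signal per peak, the tags scaled to 10 M aligned tags without spike-in scaling. How reads mapping to several places were treated is not given there either. Treated columns are tagged GNE and were matched to C48 through the sample descriptions. The values were whole multiples of 1 tag (100% within 0.1 tag).

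Members and gene lists were chosen with earlier results of these data known. Values were divided by TMM factors (edgeR 4.0.16) from peaks with a mean of at least 5, and limma 3.58.1 (R 4.3.3) was fitted on log2 of the scaled value plus 1 over peaks called in at least 1 library with a mean scaled value of at least 5, with Benjamini-Hochberg adjustment and calls at 0.05. Promoters were the sum of promoter-TSS peaks per gene. Named genes were all members, up to 3 called genes per list and direction by smallest p, and the 3 nearest promoters. Alternatives were other scalings (DESeq2 1.42.0 size factors among them), edgeR's quasi-likelihood test, pseudocount 5, other filters, the replicate block and leaving out each library. The fit was tested on simulated data. A permutation of 2 against 2 libraries cannot go below 0.333. Motifs were searched in both strands and alignments made with Biopython 1.88. The deposited table of repeat subfamily counts was not used here.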

Additional observations from a re-analysis of the deposited data

How the results depend on the processing

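Of the 7 fitted members, each kept a positive fold change under every alternative run, and 0 were called lower. Calls higher were 11 of 13 with no filter on low values (36.5% of all peaks fitted), 6 of the 13 having entered through HOMER calls in C48 libraries alone. They were 5 of 16 over all merged peaks with no filter, chosen after seeing the data (9.48% of all). With 1 library left out they were 6 of 7 without either C48 library (27.8% and 29.7% of all), 8 of 9 without DMSO replicate 1 (34.2%) and 8 of 8 without DMSO replicate 2 (35.6%). As the members were chosen on this contrast, nothing is read from these counts. The MNDA AluY peak lost its call without C48 replicate 1 (log2 fold change 0.84), without C48 replicate 2 (0.79) and over all merged peaks with no filter (0.82), and the intron 2 peak of PYHIN1 in the last of these (1.15). Promoter fold changes ranged over the alternatives from 1.24 to 2.15 for IFI16 and from 0.96 to 1.87 for AIM2, and with 1 library left out from 1.43 to 1.46 and from 1.04 to 1.32. The replicate numbers did not pair the libraries (correlation of deviations −0.03 over 33819 peaks). With the replicate block 7 members were called higher and IFI16 and AIM2 stood at 1.45 and 1.18. edgeR's quasi-likelihood test on the recovered tags called 12128 of 33819 peaks higher and 12456 lower, all 7 fitted members among the higher.

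The lists followed the scaling. Inflammasome partners called higher were 2 with the column total and 3 with ribosomal protein promoters, and called lower 1 with either and with the values as deposited, against 1 higher and 3 lower with TMM. In the list of DNA sensing and repair genes, 1 was called higher as deposited, 1 with the column total and 8 with ribosomal protein promoters. Called lower were 5, 5 and 0. Of all promoters, 35.5%, 38.6% and 67.6% were called higher under these scalings and 38.4%, 36.2% and 10.2% lower. Neighbours of the cluster called higher were 2 and lower 1 under each of those 3 scalings. Peaks called in no library and peaks under 5 tags per 10 M are limited by depth.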
